A study of Homo sapiens with 14 samples.

Results

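The regions described here were distal sites where H3K27ac was called on the stiff matrix alone and p-JUN on both matrices. The cells were LX-2, an established line of human hepatic stellate cells, the pericytes of the liver that turn into matrix-producing myofibroblasts in fibrosis. The assay was CUT&Tag, in which an antibody tethers a transposase to its target and the released fragments are sequenced. Wild-type cells had been kept for 2 days on matrix that was soft or stiff, marked 2K and 40K in the titles. Peak lists of H3K27ac (1 merged list per matrix) were joined with lists of phosphorylated JUN (p-JUN), H3K4me3 and H3K27me3, each with 2 libraries per matrix. Both p-JUN libraries labelled stiff carry TCP in their titles in place of 40K, and the study uses TCP for tissue culture plastic. For p-JUN, the stiff matrix and culture plastic cannot be told apart. A change in the share of cells with a mark and a change in its level per cell cannot be told apart either. The study states that its sequencing had at least 2 biological replicates, but no label ties these libraries to separate cultures. The p-values measure only the spread between these libraries, which may be technical.

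Members were chosen by where peaks had been called. The 2 H3K27ac lists were merged at 1 bp of overlap, and a region was kept when it was called in the stiff list only, lay more than 3 kb from every start of a protein-coding transcript, and overlapped a p-JUN peak in all 4 p-JUN lists. Of 20403 H3K27ac regions, 2215 (10.9%) were called on stiff only, and 1508 of these were distal. p-JUN was called in all 4 lists at 1076 of them, which are the members. A further 95 held p-JUN in 3 lists, 60 in 2, 80 in 1 and 197 in none. The other classes built by the same rule served for comparison: 3389 distal regions called in the soft list only and 6370 called in both lists. The members made up 9.93% of these 10835 regions, and 82.6% of all distal H3K27ac regions held p-JUN in all 4 lists. Acetylated here means called in a H3K27ac list. No signal was read where no peak was called, so a missing call does not show that the mark was absent. The member closest to the limit lay 3061 bp from a start of SNCG, and the region just inside it lay 2958 bp from a start of SH3RF3.

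H3K27ac is an acetyl mark laid down by p300 and CBP at active promoters and enhancers, and a distal acetylated site is commonly read as an active enhancer. JUN is a subunit of AP-1, a dimer of JUN, FOS or ATF family proteins that binds TGACTCA. AP-1 is activated when kinases such as JNK phosphorylate JUN. On the stiff matrix, the study reports lower p-JUN after ERK inhibition and no effect of inhibitors of other kinases, JNK among them. In stellate cells AP-1 is known for its part in the response to stress, growth factors and injury. TEAD proteins bind GGAATG and recruit the mechanosensitive coactivators YAP and TAZ, and they share many enhancers with AP-1 in other cell types.

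The label of the cells was compared with H3K4me3 within 1 kb of the starts of marker genes. Of 10 stellate or myofibroblast genes, 8 (among them COL1A1, ACTA2, VIM and PDGFRB) were marked in all 4 H3K4me3 libraries, while COL1A2 and COL3A1 were not marked in all 4. None of 10 hepatocyte genes was marked in any library. Of 10 cholangiocyte or epithelial genes 4 were marked (EPCAM, SOX9, KRT8 and KRT18), of the 9 endothelial genes in the annotation 2 (KDR and TIE1) and of 10 leukocyte genes 1 (CD14). Per list, the median summit held 60 to 64 fragments for p-JUN, 27 on soft and 26 on stiff for H3K27ac, and 120 to 207 for H3K4me3, as computed from the deposited fold and p.

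Sequences are shown for 6 of the 10 members with the strongest stiff H3K27ac, those ranked 1, 4, 5, 7, 8 and 10, as examples. The windows ranked 2, 3, 6 and 9 are not shown and held neither an AP-1 nor a TEAD motif. The summit sequence at ranks 2 and 3 occurred 2 and 5 times in the genome. Sequences of 3 other named members that hold the motifs discussed later follow. The last 3 were picked after their values were seen. Each is the 100 bases around the p-JUN summit of stiff replicate 1, hg19, plus strand, 5′ to 3′. Capitals mark AP-1 motifs (TGACTCA or, on the other strand, TGAGTCA) and TEAD motifs (GGAATG or CATTCC).
OR4C46, chr11:51580433-51580532: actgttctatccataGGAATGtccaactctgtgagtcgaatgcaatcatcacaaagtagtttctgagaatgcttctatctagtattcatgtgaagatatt
MYT1, chr20:62763454-62763553: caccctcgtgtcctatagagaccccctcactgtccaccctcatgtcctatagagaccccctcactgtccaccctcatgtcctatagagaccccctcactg
LIMS4, chr2:111199616-111199715: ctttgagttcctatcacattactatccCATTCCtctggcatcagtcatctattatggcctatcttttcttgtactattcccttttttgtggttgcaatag
SOX11, chr2:5768643-5768742: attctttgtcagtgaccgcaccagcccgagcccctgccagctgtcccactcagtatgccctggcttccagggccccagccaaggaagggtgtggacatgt
MSANTD1, chr4:3229440-3229539: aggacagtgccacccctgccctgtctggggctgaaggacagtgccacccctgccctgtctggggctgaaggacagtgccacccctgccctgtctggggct
PSG2, chr19:43564473-43564572: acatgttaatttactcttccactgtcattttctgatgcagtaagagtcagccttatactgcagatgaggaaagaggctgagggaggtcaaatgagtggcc
POSTN, chr13:38191461-38191560: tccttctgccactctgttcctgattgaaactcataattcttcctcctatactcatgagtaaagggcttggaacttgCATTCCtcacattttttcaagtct
NTRK3, chr15:87912604-87912703: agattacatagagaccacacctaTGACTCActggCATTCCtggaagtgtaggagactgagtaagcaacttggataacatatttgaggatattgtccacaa
ABCB11, chr2:169857952-169858051: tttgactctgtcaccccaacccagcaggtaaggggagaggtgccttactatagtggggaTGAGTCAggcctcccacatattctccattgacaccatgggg
The windows near MYT1 and MSANTD1 were tandem repeats, and the 64 bases at their summits occurred 5 and 13 times in the genome. The LIMS4 window occurred 2 times. The other windows shown were found once. The MSANTD1 window lay wholly outside its acetylated region, chr4:3229140-3229426. None of the first 6 held an AP-1 motif, and those near OR4C46 and LIMS4 held a TEAD motif. The site near POSTN held a TEAD motif, that near ABCB11 an AP-1 motif, and that near NTRK3 both.

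The members were weak H3K27ac peaks. Their highest stiff peak held a median of 19 fragments (8 to 75) over a local background of 2.03, with a deposited fold of 6.34 and a deposited −log10 q of 9.35 (5.08 to 30.1). At regions acetylated on both matrices the stiff peak held 29 fragments and reached a −log10 q of 13.8. Only 115 members (10.7%) were above that median, and 20 reached a −log10 q of 20. The soft-only regions were slightly stronger in their own list, at 21 fragments and a −log10 q of 11.0. The members were also narrow, with a median width of 347.5 bp against 365 bp for soft-only regions and 637 bp for regions on both. These values come from the lists that defined the classes, with 1 list per matrix, and were not tested.

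**Figure D1:**
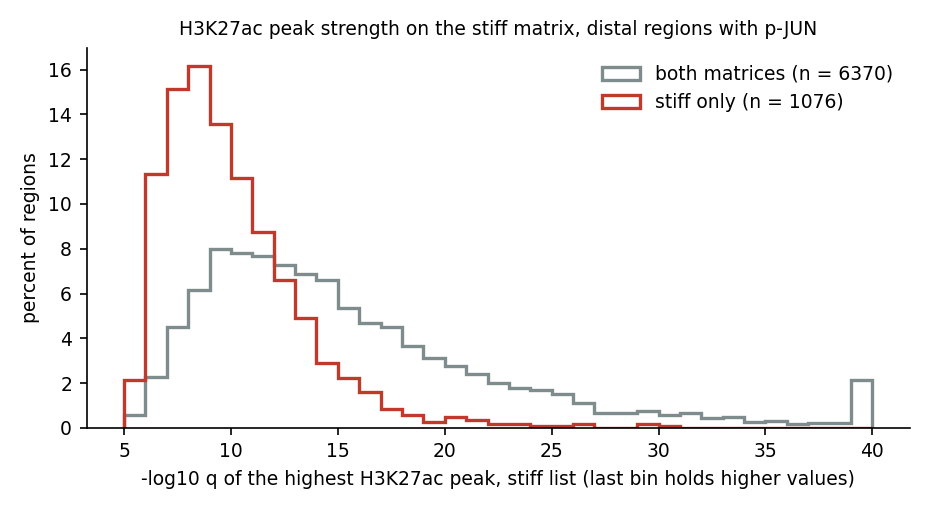
Percent of regions by the −log10 q of the highest H3K27ac peak in the stiff list, for the 1076 members (red) and the 6370 distal regions acetylated on both matrices (grey). The members centre on 9.35 and the regions on both matrices on 13.8, with overlap over most of the range.

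The stiff list was the shorter of the H3K27ac lists, with 13325 peaks deposited against 18242. With both lists cut to the same number of best peaks there were 1871 members. With peaks of the lists paired only at 50% reciprocal overlap there were 1849, and with peaks of a −log10 q of at least 10 alone there were 824. No soft peak lay within 1 kb of 1008 members. The nearest soft H3K27ac peak was a median of 24.1 kb away, and 6.32% of members had one within 1 kb, against 3.87% of soft-only regions with a stiff peak that close. The soft list searched for members was longer than the stiff list searched for soft-only regions, and the shares were not adjusted for this.

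By the rule, all members lay more than 3 kb from protein-coding starts. Their median distance to a protein-coding start was 40.8 kb, close to the 40.4 kb of soft-only regions and above the 33.2 kb of regions on both matrices. Of the 1076, 173 were within 10 kb, 437 between 10 and 50 kb, 201 between 50 and 100 kb and the others farther. By their midpoint, 492 (45.7%) lay in introns of protein-coding genes, 31 in exons, 180 in non-coding genes and 373 (34.7%) between genes. Another region of the same class lay within 10 kb of 26 members, of 312 of the 3389 soft-only regions and of 1209 of the 6370 regions on both, counts that also depend on the size of each class. A region acetylated on both matrices lay within 10 kb of 151 members (14.0%) and within 100 kb of 609 (56.6%). The members had 951 nearest genes, of which 839 had 1 member, 100 had 2, 11 had 3 and 1, NTRK3, had 4. Of these 951 genes 526 (55.3%, and 14.4% of the 3647 genes nearest to regions on both matrices) were also nearest to a region on both, and 326 were nearest to neither other class.

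The 10 members with the highest H3K27ac were led by sites at the edge of unsequenced parts of the assembly. The highest 3 lay 5147 to 18694 bp from such a gap, at chr11:51580218 and chr11:51588786 (nearest gene OR4C46, an olfactory receptor) and chr2:92307123 (nearest gene RP11-685N3.1). At OR4C46 the first site held 62 H3K27ac fragments on stiff. Its p-JUN summits reached 92 and 141 on soft against 124 and 88 on stiff, so the matrices overlapped. At the second the values were 98 and 106 on soft and 103 and 70 on stiff, and at RP11-685N3.1 they were 103 and 112 on soft and 125 and 78 on stiff. Copies were counted too: the summit sequence of the second OR4C46 site occurred 2 times in the genome and that of the RP11-685N3.1 site 5 times. All 3 overlapped H3K27me3 peaks, in 3 or 4 of 4 libraries. Over all members, 123 (11.4%) lay within 1 Mb of a gap, against 8.85% of soft-only regions and 11.7% of regions on both matrices. The sequence at the summit occurred more than once in the genome at 42 members (3.90%), 2.12% of soft-only regions and 3.27% of regions on both.

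The rest of the 10 lay near MYT1 and SOX11 (neural transcription factors), LIMS4 (a copy of a focal adhesion adaptor gene), ANKRD33B, MSANTD1, NCAPG2 (a condensin subunit) and PSG2 (a pregnancy glycoprotein). Near LIMS4, at chr2:111199402, p-JUN summits reached 97 and 83 on soft against 135 and 186 on stiff. Both stiff libraries were above both soft libraries, a log2 difference of 0.76 after each library was centred on its median (SE 0.13, adjusted p = 2.55e-06 in limma). Near PSG2 the values were 198 and 170 on soft and 218 and 258 on stiff, a log2 difference of 0.31 (SE 0.10, adjusted p = 0.021 in limma). Near MYT1 they were 131 and 102 on soft and 103 and 134 on stiff, with full overlap of the matrices. The other 4 members of this group had adjusted p of 0.221 to 0.875 in limma.

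**Figure D2:**
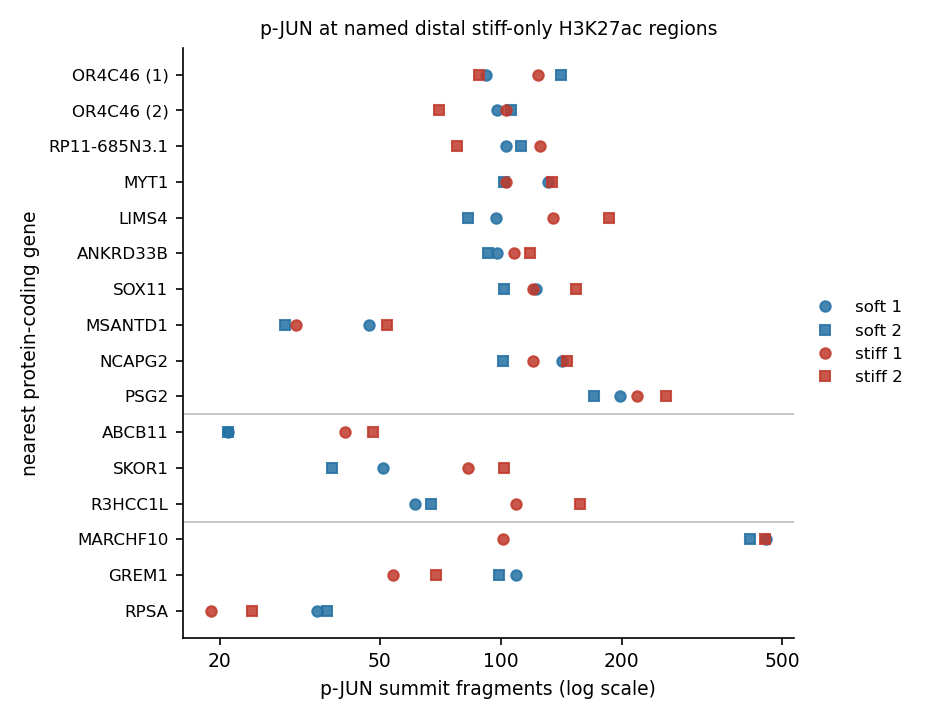
p-JUN summit fragments (log axis) in the 4 libraries at 16 named members, by nearest gene, with the 10 strongest in H3K27ac above the first line, then the 3 with the largest rise and the 3 with the largest fall of p-JUN on stiff. Soft (blue) and stiff (red) overlap at most of the 10, and part near LIMS4, ANKRD33B and PSG2.

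The choice of members used the presence of p-JUN peaks and not their height. To ask whether height differed between the matrices at regions with a call in the stiff list alone, summit fragments were compared between the p-JUN libraries. Members had median p-JUN summits of 98 and 89 fragments on soft against 95 and 114 on stiff. Regions acetylated on both matrices had 174 and 153 on soft and 156 and 184 on stiff. On the log2 scale the members minus those regions were -0.83 and -0.78 on soft against -0.72 and -0.69 on stiff. The soft mean was -0.80 ± 0.03 and the stiff mean -0.70 ± 0.02 (SD, n = 2 each), a difference of 0.10 or 1.07-fold, and the matrices did not overlap. The exact permutation test gave p = 0.333, the smallest that 2 libraries against 2 allow. In the soft-only regions the same difference was -0.03, from a soft mean of -0.59 ± 0.02 to a stiff mean of -0.61 ± 0.0026 (SD, n = 2 each). The members minus the soft-only regions went from a soft mean of -0.22 ± 0.05 to a stiff mean of -0.09 ± 0.02 (SD, n = 2 each), a difference of 0.13 (exact permutation test, p = 0.333). All 3 differences kept their sign when any 1 library was left out. With the deposited fold in place of fragments, 0.10 became 0.04 and 0.13 became 0.06. Each value is set against regions of the same library, so a factor common to all peaks of a library cancels.

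**Figure D3:**
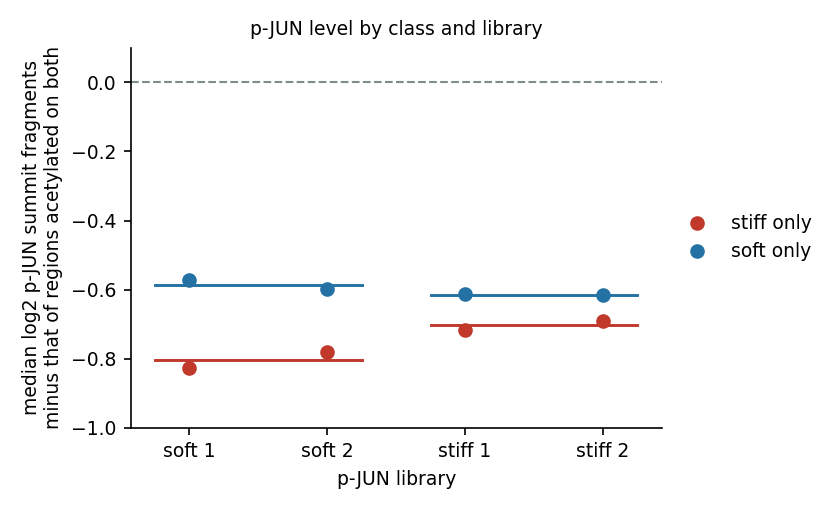
Median log2 p-JUN summit fragments of each class minus the median of distal regions acetylated on both matrices (dashed line at 0), in each of the 4 p-JUN libraries. Lines are means of 2 libraries; the stiff-only regions go from -0.80 to -0.70 and the soft-only regions go from -0.59 to -0.61.

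Across p-JUN regions called in all 4 libraries, both stiff libraries were above both soft ones at 22.5% of 40433 regions and below them at 33.3%, after each library was centred on its median. Of the 1073 p-JUN regions at members, 416 (38.8%) were above and 236 (22%) below. At soft-only regions the shares were 19.0% above and 39.5% below, and at regions on both matrices 22.9% and 36.4%. The median log2 difference was 0.07 at members, -0.08 at soft-only regions, -0.05 at regions on both and -0.05 over all p-JUN regions. With members cut into 4 bins of nearly equal size by the stiff −log10 q, from low to high, the stiff minus soft difference against regions on both was 0.03, 0.08, 0.15 and 0.14. The exact permutation p was 0.667 for the lowest bin and 0.333 for the others, and the differences between bins were not tested. Split instead by p-JUN level and set against regions on both of like level, it was 0.14 in the lowest of 4 bins, then 0.09, 0.08 and 0.04.

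**Figure D4:**
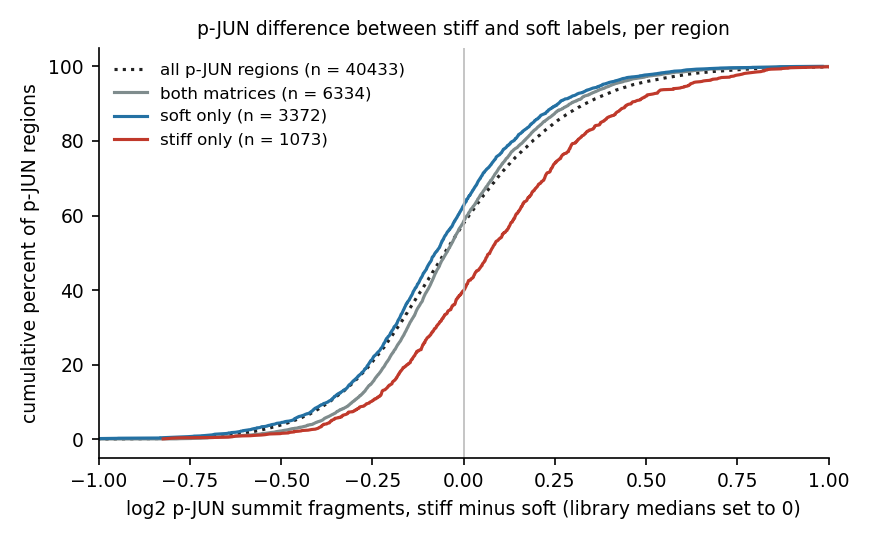
Cumulative percent of p-JUN regions by their log2 difference, stiff minus soft, with each library centred on its median, for p-JUN regions at stiff-only, soft-only and both-matrix H3K27ac regions and for all 40433. The curve of the stiff-only regions lies to the right, with a median of 0.07 against -0.08 for soft-only regions.

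Region by region, limma with a variance trend called 150 of the 1073 member p-JUN regions higher on stiff (14.0%) and 43 lower (4.01%) at an adjusted p of 0.05. Over all 40433 regions the shares were 6.15% higher and 7.37% lower. These calls rested on the trend. Without it, and with the deposited fold in place of fragments, limma called 0 regions. The smallest adjusted p in limma was 0.063 without the trend. With the fold it was 0.136 over all regions and 0.295 at members. At an unadjusted p of 0.05, 208 member regions were then higher and 66 lower without the trend, and 68 higher and 22 lower with the fold. Without the trend these were 19.4% and 6.15% of member regions, against 10.2% and 12.9% of all regions. With the fold they were 6.34% and 2.05%, against 4.90% and 4.43%, so the share of higher regions was then near the background. Leaving out soft replicate 1 or 2 left 69 or 71 called member regions in place of 193.

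The members with the largest p-JUN differences ranked between 49 and 947 among the 1076 in H3K27ac. Near ABCB11, the bile salt export pump of hepatocytes, an intronic site held 21 p-JUN fragments in each soft library and 41 and 48 on stiff (log2 difference 1.02, SE 0.22, adjusted p = 4.52e-04 in limma). Near SKOR1, a corepressor of SMAD signalling, the values were 51 and 38 on soft and 83 and 102 on stiff. Near R3HCC1L they were 61 and 67 on soft and 109 and 157 on stiff. At all 3, both stiff libraries were above both soft libraries, with adjusted p of 5.03e-06 near SKOR1 and 1.37e-07 near R3HCC1L in limma. In the opposite direction, an exonic site nearest to GREM1, a secreted BMP antagonist, reached 109 and 99 on soft against 54 and 69 on stiff (log2 difference -0.82, SE 0.16, adjusted p = 4.00e-05 in limma). Near RPSA, a ribosomal protein gene, they were 35 and 37 on soft and 19 and 24 on stiff. Near MARCHF10 they were 456 and 416 on soft and 101 and 453 on stiff, so the fragments of the matrices overlapped and only stiff replicate 1 was low. The values did not overlap once each library was centred on its median, which is how the site came to be named. Over the whole merged p-JUN region its log2 difference was -0.04 (adjusted p = 0.798 in limma).

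AP-1 motifs were less frequent at the members than at soft-only regions. Within 50 bp of the p-JUN summit, TGACTCA was found on either strand at 27.6% and 28.1% of members with the soft summits and at 27% and 27.2% with the stiff summits. The mean was 27.5% ± 0.48 (SD, n = 4 libraries), 12.8 times the 2.15% of windows 1 kb to either side. It was 36.9% ± 0.35 at soft-only regions, 31.3% ± 0.60 at regions on both matrices and 32.9% ± 0.50 over all p-JUN regions of 4 libraries (SD, n = 4 each). Members minus soft-only regions came to -9.39 ± 0.24 percentage points, and the difference was negative in each of the 4 libraries. Its size depended on the window, at -2.54 points within 25 bp of the p-JUN summit and -5.97 points around the H3K27ac summit. With the summits of stiff replicate 1 the 95% Wilson interval was 24.4 to 29.7% for members and 34.8 to 38.1% for soft-only regions. The 4 libraries read the same regions, so their SD holds only the movement of the summits, and the intervals cover counting error only. Where present, the motif lay a median of 27 bp from the summit, as in the other classes (26 bp). The p-JUN summit lay a median of 94 bp from the H3K27ac summit at members, and up to 2719 bp. The medians were 81 bp at soft-only regions and 87 bp at regions on both. It lay within 150 bp at 67.0% of members, 72.9% of soft-only regions and 69.6% of regions on both. Some windows therefore fell outside the acetylated region, and any effect on the motif shares was not tested.

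TEAD motifs went the other way. GGAATG was found at 15.4%, 15.9%, 15% and 16.5% of members, a mean of 15.7% ± 0.67 (SD, n = 4 libraries) against 6.01% in the windows to either side. The mean was 10.3% ± 0.31 at soft-only regions, 11.9% ± 0.21 at regions on both matrices and 9.46% ± 0.14 over all p-JUN regions. With stiff replicate 1 the Wilson interval was 13.0 to 17.2% for members and 8.93 to 10.9% for soft-only regions. The difference from soft-only regions was 5.13 points without regions within 1 Mb of a gap and 5.11 without repeated summit sequence, close to the 5.39 over all. It was 3.16 points within 25 bp of the p-JUN summit and 2.49 around the H3K27ac summit. Of the members, 241 held AP-1 alone, 112 TEAD alone, 49 both and 674 (62.6%) neither. The median window had a GC content of 47.5% at members and at soft-only regions and 50.5% at regions on both.

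**Figure D5:**
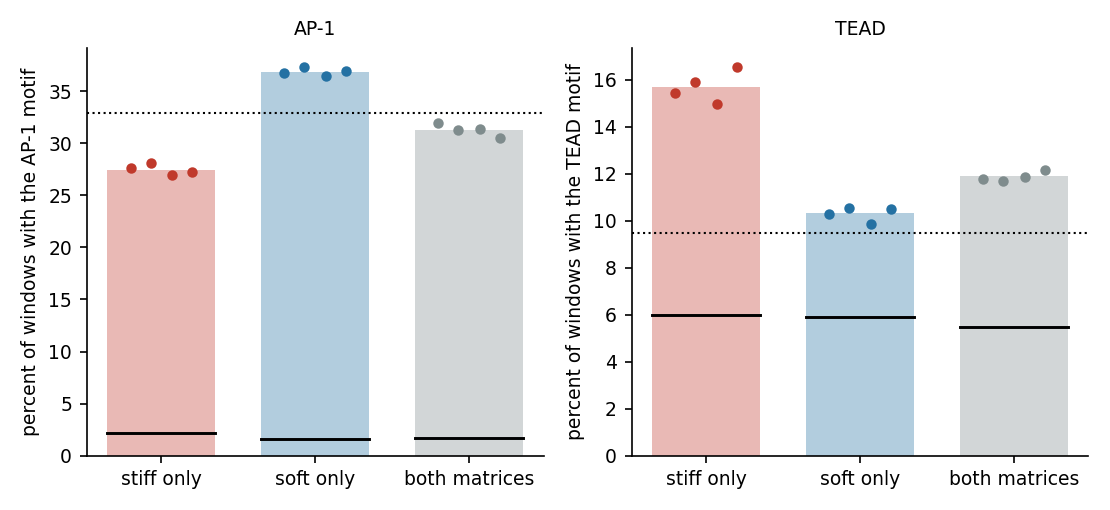
Percent of windows within 50 bp of the p-JUN summit that hold an AP-1 (left) or TEAD (right) motif, by class. Bars are means and points the 4 p-JUN libraries; black lines are windows 1 kb away and the dotted line all p-JUN regions of 4 libraries. Stiff-only regions are lowest for AP-1 (27.5%) and highest for TEAD (15.7%).

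Motif shares also moved with p-JUN level, so they were read in 4 bins of it, set over all distal acetylated regions. AP-1 was found at 15.8%, 26.7%, 40.8% and 37.8% of members from the lowest to the highest bin, and at 22.2%, 37%, 42.9% and 56.9% of soft-only regions. Regions on both matrices had 14.5%, 24.1%, 35.6% and 43.1%. In each bin the share of members was below that of soft-only regions, and in the lower 3 it was above that of regions on both, the reverse of the order over all levels. TEAD was found at 14.6%, 17.8%, 13.6% and 17.9% of members, at 9.34%, 11.2%, 8.86% and 12.7% of soft-only regions and at 11.3%, 12.1%, 11.8% and 12.1% of regions on both, so the share of members was the highest in each of the 4 bins. Of the other motifs, RUNX (TGTGGT) was at 8.97% ± 0.61 of members, 8.34% of windows to either side and 8.22% of all p-JUN regions. CRE (TGACGTCA) was at 0.163% of members and 0.864% of all p-JUN regions, CEBP (TTGCNNCAA) at 0.720% and 0.635%, and the SRF CArG box at 0.511% and 0.451%. All were searched on both strands. The palindromic NFI motif was found at 0 members, for which the Wilson interval reaches 0.356%, and at 0.013% of all p-JUN regions.

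p-JUN height was then read by motif, each class against regions on both matrices with the same motif. At the 290 members with AP-1 the stiff minus soft difference was 0.03, and at the 786 without it 0.12. At the 161 with TEAD it was 0.10 and at the 915 without it 0.11. At soft-only regions these values lay between -0.09 and -0.01. Each had an exact permutation p of 0.333 or 0.667, and whether the difference itself differed by motif was not tested. Members with AP-1 alone had higher p-JUN summits, at a median of 130 fragments in stiff replicate 1, than those with TEAD alone (91.5) or neither (84).

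H3K4me3, the mark of promoters, was sparse at the members. It overlapped 79 and 94 of 1076 members on soft and 93 and 107 on stiff, or 7.34%, 8.74%, 8.64% and 9.94%. The soft mean was 8.04% ± 0.99 and the stiff mean 9.29% ± 0.92 (SD, n = 2 each), and the groups overlapped (exact permutation test, p = 0.667). The highest share was that of stiff replicate 2, whose summits held the most fragments. Soft-only regions had means of 10% and 10.1%, and regions on both matrices 22.4% and 24.8%. Members minus regions on both came to -14.9 ± 1.23 percentage points and members minus soft-only regions to -1.4 ± 0.71 (SD, n = 4 libraries). The 4 libraries were read at the same regions, so the SD holds no spread between regions. Regions on both were also wider, at a median of 637 bp against 347.5 bp for members. Any effect of width on the overlap was not tested. H3K4me3 was called in all 4 libraries at 58 members (5.39%), against 12.3% of all distal H3K27ac regions, and in none at 934 (86.8%). A start of a non-coding transcript lay within 1 kb of 87 members (8.09%), 11.4% of soft-only regions and 14.6% of regions on both. The repressive mark H3K27me3 overlapped 15 and 13 members on soft and 15 and 15 on stiff (exact permutation test, p = 1.0). That was 1.21 to 1.39% of members per library, against 0.118 to 0.236% of soft-only regions and 0.471 to 0.769% of regions on both. Of the 18 members with it in any library, 14 lay within 1 Mb of an assembly gap.

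The genes next to members were read against 12 lists of stellate cell and mechanical signalling genes. In all, 86 members (7.99%) had a list gene as the nearest gene, 73 genes together, against 8.44% of soft-only regions, 8.59% of regions on both and 8.48% of the 3 classes together. Growth factors and receptors had 17 members (1.58%, against 1.02% of all 3 classes) and AP-1 family genes had 6 (0.558%, against 0.286%). MAP kinase genes and phosphatases had 2 (0.186%, against 0.729%) and integrin and focal adhesion genes 3 (0.279%, against 0.646%). Matrix proteins had 12 members (1.12%, against 1.21%), contractile and actin genes 9 (0.836%, against 0.904%), TGF-beta and BMP genes 9 (0.836%, against 0.914%), YAP and TEAD genes with YAP targets 6 (0.558%, against 0.591%), proteases and inhibitors 3 (0.279%, against 0.526%), inflammatory mediators 4 (0.372%, against 0.351%) and stellate identity genes 5 (0.465%, against 0.341%). These are counts of neighbours, with no test, and the nearest gene need not be the one a site acts on. In the p-JUN fit, 14 of the 86 sites rose on stiff, 5 fell and 67 were not called, beside 152 risen and 43 fallen of all 1076, counted per member since some share a p-JUN region. The median log2 difference was 0.03 at the 86 and 0.07 at all members. No site near the proteases or the stellate identity genes was called. Of the sites that fell, those near COL6A1 (a collagen VI chain), NID2 (a basement membrane nidogen) and EREG (the EGF receptor ligand epiregulin) are named here because of their values.

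Among the ligands and receptors, NTRK3, a neurotrophin receptor, had 4 members, 34.0 to 563 kb from a start. The site with both motifs held p-JUN summits of 220 and 215 on soft and 198 and 233 on stiff, and none of the 4 had an adjusted p under 0.05 in limma. IGF1R, the receptor of insulin-like growth factors, had 2 members. The intronic site, at chr15:99449697-99450142, rose from 100 and 101 on soft to 141 and 152 on stiff (log2 difference 0.49, SE 0.13, adjusted p = 0.004 in limma), the only riser of the 17 in its list. The other, 99.8 kb away, held 107 and 72 on soft and 85 and 94 on stiff. IGFBP7, which binds insulin-like growth factors, and FLT1, a VEGF receptor, had 2 members each, with log2 differences of 0.14 to 0.25 that did not pass the test. INHBA, a subunit of activins, had a member 211 kb away that rose from 94 and 106 on soft to 114 and 189 on stiff (log2 difference 0.50, SE 0.13, adjusted p = 0.004 in limma). The site near BMP4 held 59 and 45 on soft and 50 and 104 on stiff and did not pass. Of the 9 TGF-beta and BMP sites, 1 (INHBA) rose and 1 (GREM1) fell, with a median log2 difference of -0.14. The counts of both lists stand beside 14.0% higher and 4.01% lower of all member p-JUN regions.

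Of the 12 sites near matrix genes 2 rose and 2 fell, beside 14.0% higher and 4.01% lower of all member p-JUN regions. Matrix genes with members were led by COL5A2, a fibrillar collagen chain, and TNC, tenascin C, with 2 each, and POSTN and LAMC1 with 1. The intronic site 92.8 kb from COL5A2, at chr2:189951460, rose from 78 and 76 on soft to 116 and 175 on stiff (log2 difference 0.83, SE 0.14, adjusted p = 1.71e-06 in limma), and the site 29.0 kb away held 56 and 50 on soft and 53 and 47 on stiff. POSTN encodes periostin, a matrix protein of activated stellate cells and fibroblasts. Its site, 18.2 kb away at chr13:38191160, was the 23rd strongest in H3K27ac and rose from 79 and 74 on soft to 105 and 149 on stiff (log2 difference 0.65, SE 0.14, adjusted p = 3.88e-04 in limma). The sites near TNC and LAMC1 did not pass the test.

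Among contractile genes, 2 of 9 sites rose and none fell, beside 14.0% higher and 4.01% lower of all member p-JUN regions. They lay near MYH9 (non-muscle myosin IIA) and TLN2 (a talin that links integrins to actin). Near MYH9 the values were 86 and 79 on soft and 127 and 142 on stiff, and near TLN2 they were 23 and 23 on soft and 33 and 51 on stiff (adjusted p = 2.38e-04 and 0.010 in limma). Near MRTFA, a coactivator of SRF that actin dynamics control, the member was among the stronger in H3K27ac, with 34 fragments and a −log10 q of 19.4, while p-JUN held 309 and 271 on soft and 269 and 325 on stiff. Of 3 integrin and focal adhesion sites, that near PTK2 (focal adhesion kinase) rose from 147 and 130 to 177 and 216 (adjusted p = 0.002 in limma). The other 2, near ITGB6 and ITGB1, were not called. Of 4 inflammatory sites, that near TNFRSF1A (a TNF receptor) rose from 321 and 264 to 379 and 449 (adjusted p = 1.56e-05 in limma). The other 3, near NFKB1, NFKBIZ and IL15, were not called. JUN itself had 2 members, and the other 4 sites of the AP-1 list, near JDP2, ATF1 and ATF7 among others, were not called. The one 45.8 kb away held 41 and 37 on soft and 57 and 74 on stiff (adjusted p = 0.008 in limma), and the one 149 kb away held 96 and 74 on soft and 67 and 98 on stiff.

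Of the 6 sites near YAP-related genes, 1 of the 2 near F3 (tissue factor) and that near STK4 (the Hippo kinase MST1) rose at adjusted p of 0.016 and 0.024 in limma, while that near MYOF (myoferlin) fell from 389 and 365 to 323 and 343 (adjusted p = 0.035). Sites near SMAD2, SMAD3, VIM, PPARG, NR2F2 and TBX3 did not pass, with log2 differences of -0.29 to 0.15. Of all member p-JUN regions, 14.0% were called higher and 4.01% lower. As with all limma calls here, none of the named calls held without the variance trend.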

How the data were processed

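CUT&Tag peak lists of LX-2 cells, 14 in all, were used. Per the labels the authors processed reads with Trim Galore, Bowtie2 and Picard on hg19. The study's methods name MACS2 under ATAC-seq and no peak caller under CUT&Tag, and the MACS2 version is not given in the sources used here. Columns deposited in each list are a fold (the ratio of the peak to its local background), −log10 p, −log10 q and a score of the caller, which was not used. H3K27ac was deposited as 1 merged list per matrix, so it has no replicate error. Read totals are not in the lists and depth is read from fragments: the fragments at each narrow summit were recovered as whole numbers from fold and p for 100.0% of peaks (relative error under 1e-04).

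Only the 24 standard chromosomes were kept, and between 2 and 8 mitochondrial peaks in each list were dropped. Starts came from GENCODE release 44 mapped to GRCh37, and sequence from GRCh37. p-JUN height was the log2 of the summit fragments of the highest peak in a region. Soft and stiff libraries were set against each other with exact permutation tests, two-sided. All 40433 p-JUN regions called in 4 libraries were fitted in limma 3.58.1 (R 4.3.3; lmFit, eBayes with trend, Benjamini-Hochberg over all regions, threshold 0.05), with members read out of that table. Motif windows held 50 bp to each side of the p-JUN summit. Shares have 95% Wilson intervals. Gaps were runs of at least 50 kb without sequence. Steps were tested on simulated data. Named regions were the 10 members with the highest stiff H3K27ac −log10 q, the 3 highest and 3 lowest p-JUN differences among members whose values, on the log2 scale with each library centred on its median, did not overlap between matrices, and those at the 3 kb limit. Named genes were those nearest to them, genes with 4 or more members, and up to 4 per gene list, by number of members and then H3K27ac. The members, lists and tests were chosen with earlier results of these data known. The result of 1 gene list is not reported here. Groups followed the treatment label. Scripts ran in python 3.11.15 with pysam 0.24.0, scipy 1.17.1, pandas 2.3.3, numpy 2.4.6 and matplotlib 3.10.9.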

Additional observations from a re-analysis of the deposited data

How the results depend on the processing

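The number of regions that met the rule was 1849 at 50% reciprocal overlap and 1871 with H3K27ac lists of equal length. It was within 1.5 times of 1076 under the other alternatives run (1083 to 1115 without any 1 p-JUN list). Settings that cut or paired the H3K27ac lists anew also took in regions with a soft peak in the full list. The stiff minus soft p-JUN difference of members, 0.10, was 0.04 with the deposited fold, 0.15 at an H3K27ac −log10 q of at least 10, and 0.08 to 0.13 without any 1 library. For soft-only regions it was -0.04 to -0.02 and for the difference between the classes 0.09 to 0.17 without any 1 library. Calls of limma over all regions went from 5467 to 0 without the trend and to 0 with the deposited fold, and to between 1422 and 5352 without any 1 library. For members they went from 193 to 0 under both settings, and to between 69 and 207 without any 1 library. Where an arm kept 1 library, it was assumed to vary like the other arm.

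The AP-1 share of members minus soft-only regions was -11.5 points at 100 bp, -2.54 at 25 bp, -5.97 at the H3K27ac summit, -12.9 at a −log10 q of at least 10, -6.74 at reciprocal overlap and -9.09 over 10 kb from a start. In the 4 bins of p-JUN level, from low to high, it was -6.43, -10.3, -2.14 and -19.1, and -9.47 to -9.29 without any 1 library. For TEAD the values were 6.56, 3.16, 2.49, 4.78 and 3.17 for the first 5 of these settings, 6.61 and 4.73 in the middle bins, and 5.18 to 5.5 without any 1 library. The cause of these shifts was not tested.

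The H3K4me3 difference of 1.25 points was 0.56 to 1.95 and the H3K27me3 difference of 0.09 was 0 to 0.19 without any 1 library. No direction turned. With a replicate block, the p-JUN difference of members was 0.10, that of soft-only regions -0.03, that between classes 0.13, H3K4me3 1.25 and H3K27me3 0.09, and limma called 6074 regions and 215 at members. The deviations of the p-JUN libraries numbered 1 had a correlation of 0.05 between soft and stiff, a single value that cannot exclude a shared batch. The bins of p-JUN level, the filters on gaps and repeats and the alternatives for TEAD were chosen after seeing the data. Depth limits the H3K27ac calls, with a median of 19 fragments at the summit of a member and 1 list per matrix.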
